A study of Mus musculus with 17 samples.

Results

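The lining of blood vessels was followed in a mouse model of rhabdoid tumor through 10 genes that vessel cells as a class express: Pecam1, Cdh5, Kdr, Flt1, Tek, Tie1, Emcn, Esam, Plvap and Erg. They were chosen by name, from a list of pan-endothelial genes, and were looked up by their Ensembl identifiers among the 50600 gene IDs of each count file. All 10 were found, and all 10 passed the filter on low counts. RNA sequencing of whole tissue gave 17 libraries from mice of the strain C57BL/6J. They fall into 5 groups: a central nervous system tumor of the SHH subtype (SHH tumor, n = 3), one of the Myc subtype (Myc tumor, n = 4), an Extracranial tumor (n = 4), a tumor grafted into the flank of syngeneic mice (syngeneic graft, n = 3) and Healthy brain (n = 3). The genotype of all 4 tumor groups is given as SMARCB1 -/- and that of the brains as WT. The age of the mice, the driver of the deletion, the tumor each graft came from, and whether libraries share an animal are not given in the sources used here.

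Endothelial cells form the inner wall of every blood vessel. They are held together by junction proteins such as VE-cadherin, grow and sprout under VEGF, and are kept quiescent or loosened by the angiopoietins. In the brain they build a tight barrier with few openings, whereas vessels of many other organs have fenestrae, small pores closed by a diaphragm. Endothelial genes in a tumor sample come from the host's vessels that run through the tumor as well as from any tumor cell that transcribes them. In bulk tissue, a lower level can mean fewer endothelial cells or less RNA of that gene per cell, and the data cannot tell these apart.

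In the GENCODE M21 annotation of mm10, the VEGF receptor genes are Kdr (ENSMUSG00000062960) at chr5:75932827-75978458 on the minus strand and Flt1 (ENSMUSG00000029648) at chr5:147561604-147726011 on the minus strand. The angiopoietin receptor genes are Tek (ENSMUSG00000006386) at chr4:94739289-94874976 on the plus strand and Tie1 (ENSMUSG00000033191) at chr4:118471191-118490061 on the minus strand. The genes of junction proteins are Pecam1 (ENSMUSG00000020717) at chr11:106654217-106750628 on the minus strand, Cdh5 (ENSMUSG00000031871) at chr8:104101625-104144511 on the plus strand and Esam (ENSMUSG00000001946) at chr9:37528078-37538319 on the plus strand. Those of vessel-type proteins are Emcn (ENSMUSG00000054690) at chr3:137341067-137432185 on the plus strand and Plvap (ENSMUSG00000034845) at chr8:71497765-71511752 on the minus strand, and the transcription factor gene is Erg (ENSMUSG00000040732) at chr16:95359169-95586593 on the minus strand. The files give 1 count per gene, so isoforms such as the soluble form of Flt1 were not told apart.

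The total count of a library ranged over 35662656 to 71390917 for SHH tumors, 18685672 to 114338058 for Myc tumors, 22491998 to 52956537 for Extracranial tumors, 36951431 to 96214427 for grafts and 103095016 to 130835711 for brains. The lowest count of any of the 10 genes in any library was 57, so that counting error was small beside the spread between libraries. Smarcb1, the deleted gene, was at 2.52 to 33.3 CPM (counts per 1000000 counts, scaled by TMM factors) in the 14 tumors and at 119 to 132 CPM in the brains. Some libraries carried transcripts of tissue other than the labelled one. In Healthy brain 1, the growth hormone gene Gh stood at 1215 CPM and the muscle actin gene Acta1 at 138 CPM, against at most 0.135 and 3.10 CPM in the other brains. In SHH tumor 1, Mbp, a gene of myelin, stood at 4017 CPM, and it was at most 65.1 CPM in the other SHH tumors. The brains themselves had 48.7, 36.5 and 35.8 CPM of Mbp. Myc tumor 1 had 71.4 CPM of Gh. Where leaving out 1 library changed a call on the 10 genes, that library is named.

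The summed CPM of the 10 genes was highest in the flank grafts and lowest in the SHH tumors. The SHH tumors held 91.5 to 195 CPM of this sum, the Myc tumors 147 to 441, the Extracranial tumors 151 to 454 and the grafts 602 to 684 CPM, against 218 to 287 CPM in Healthy brain. The grafts and the SHH tumors thus stood above and below the brains without overlap, while the Myc and Extracranial tumors spread on both sides of them. This order holds for the 10 genes only. A sum over 23 other endothelial markers was 602 to 1380 CPM in Myc tumors and 925 to 1176 in grafts. It was 235 to 607 CPM in SHH tumors and 224 to 1118 in Extracranial tumors, against 433 to 521 CPM in brain. Brain was the only tissue measured without tumor. Against it, the site of the grafts and Extracranial tumors cannot be told apart from tumor state and genotype. By mean CPM, the graft was the highest group for 9 of the 10 genes, and Tek was highest in brain. SHH tumors were the lowest group for 8 genes, and Extracranial tumors for Flt1 and Tek. Neighbours in these orders seldom differed beyond their spread: of 40 neighbouring pairs of groups, 2 passed the test, Cdh5 between Myc and SHH tumors and Emcn between Extracranial tumors and brain.

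**Figure D1:**
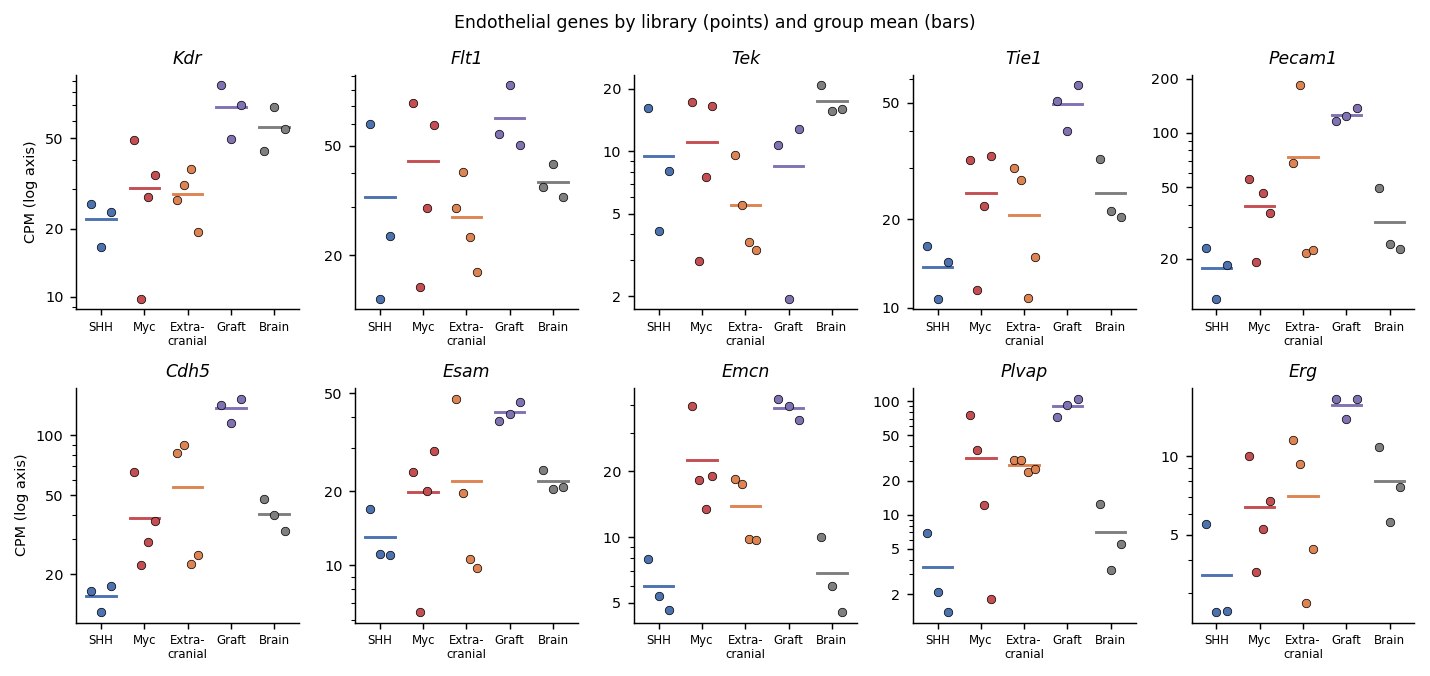
Level of each of the 10 endothelial genes in every library, in CPM on a log axis, with the 5 groups side by side and a bar at each group mean. The 3 grafts are the highest group for 9 of the genes, and Tek is the exception.

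Each gene was tested with the edgeR quasi-likelihood test over all 21494 genes that passed the filter, and counts as called where the p adjusted by Benjamini-Hochberg was under 0.05. A test of any difference among the 5 groups called 7 of the 10 genes, against 64.7% of all genes tested, and left out Flt1, Tek and Esam. Against Healthy brain, the SHH tumors had 0 of 10 called, in a comparison that called 4.37% of all genes in either direction. At an unadjusted edgeR p under 0.05, 3 of the 10 (Kdr, Cdh5 and Erg) were lower in SHH tumors. The share of all genes at that threshold is not given here, so no conclusion is drawn from this count. DESeq2 called 1 and limma voom 6 of the 10, all lower. These tools also called more of all genes in either direction, 13.4% by DESeq2 and 35.2% by limma voom. The libraries of Cdh5, Kdr, Tie1, Esam and Erg, 5 of 10, lay below every brain library, against 20.7% of all genes, and the median log2 difference of the 10 was -0.86, beside -0.02 for all genes.

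Myc tumors had 1 gene called higher than in brain, Emcn, where 25.3% of all genes were called higher. The Extracranial tumors likewise had Emcn alone called higher, where 26.1% were. No member was called lower in either of these tumors, against 26.8% and 26.1% of all genes. DESeq2 and limma voom called Kdr lower in both, and DESeq2 also called Tek lower in Extracranial tumors. Of all genes, in either direction, DESeq2 called 57.4% in each comparison. Limma voom called 66.1% in Myc and 61.8% in Extracranial tumors. In the grafts, 4 of 10 were called higher than in brain (Pecam1, Cdh5, Emcn and Plvap), against 24.9% of all genes, and 0 were lower, against 30.4%. Of the 10, 8 lay above every brain library in all 3 grafts, against 34.5% of all genes. The median log2 difference of the members in grafts was 0.98, while that of all genes was -0.16.

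Between tumors, every called difference from the SHH group was upward. Against SHH tumors, 3 of 10 genes were higher in Myc tumors (background 19%), 4 of 10 in Extracranial tumors (18.6%) and 8 of 10 in grafts (20.4%). All of these 8, every member except Flt1 and Tek, also separated grafts from SHH tumors without overlap, which 29.6% of all genes did. The median log2 difference of the 10 was 0.85 in Myc tumors, 0.87 in Extracranial tumors and 1.997 in grafts over SHH tumors, beside 0.00, 0.07 and -0.14 for all genes. These comparisons share the SHH libraries.

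The grafts stood above the other non-SHH tumors as well, but few members were called. Against Myc tumors, Cdh5 was the 1 gene of 10 called higher (3.12% of all genes), and 6 of 10 had no overlap (14.1%). Against Extracranial tumors, Emcn was the 1 gene of 10 called higher (2.16%), and 7 of 10 had no overlap (11.9%). Extracranial and Myc tumors differed in 0 of 10 members, at a background of 0.0186%. At an unadjusted edgeR p under 0.05 that comparison had 0 of 10, a count that also stands without the share of all genes. DESeq2 and limma voom each called 0 of 10, where they called 5.81% and 0% of all genes. Single libraries changed some of these counts. Pecam1 was also called in grafts over Myc tumors without Extracranial tumor 2 (adjusted p = 0.0404). Over Extracranial tumors, the grafts also had Kdr called without Myc tumor 2 (adjusted p = 0.0226), Tie1 without Myc tumor 2 or Extracranial tumor 1 (adjusted p = 0.0398 to 0.044) and Esam without Extracranial tumor 1 (adjusted p = 0.0389).

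**Figure D2:**
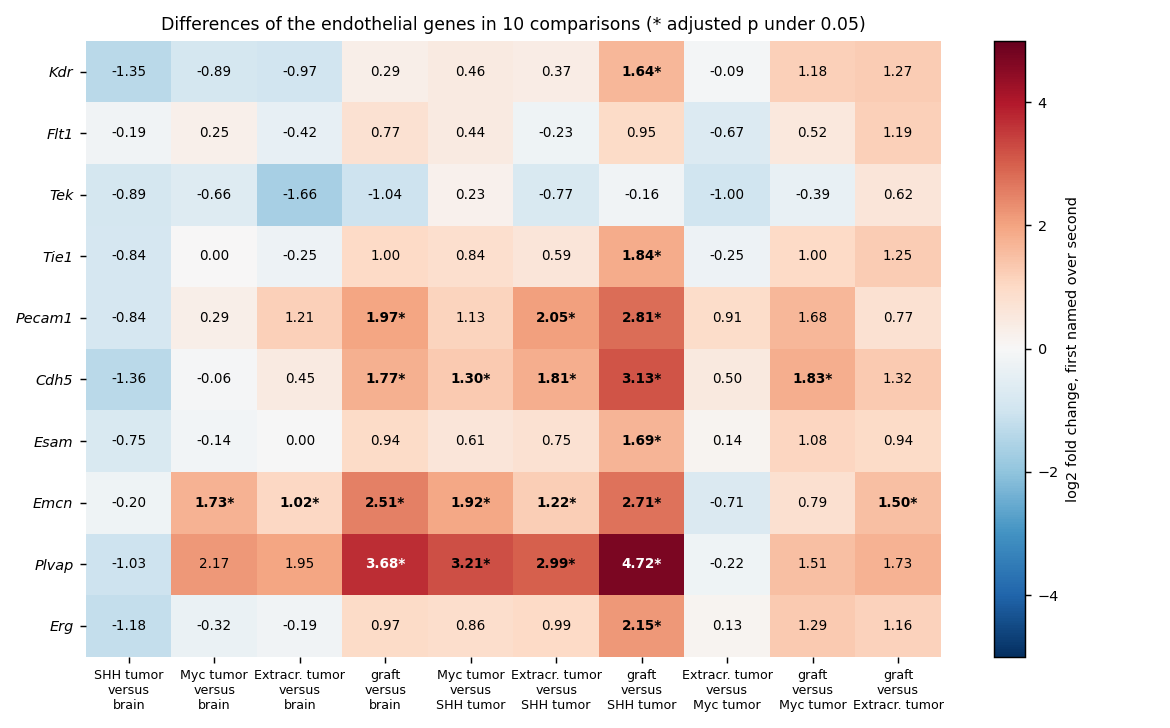
Fitted log2 difference of each gene (rows) in 10 comparisons of groups (columns), first-named group over the other. An asterisk marks an adjusted p under 0.05. The 23 called differences are all positive, and 17 of them lie between tumor groups.

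Kdr and Flt1 are the main receptors for VEGF on blood endothelium. Kdr, or VEGFR2, carries the growth signal, and Flt1, or VEGFR1, binds VEGF more tightly and signals weakly, so that it also acts as a trap. The mean of Kdr was below that of brain in every tumor group that was not a graft. Its levels were 25.7, 16.6 and 23.7 CPM in SHH tumors, 49.4, 9.80, 27.5 and 34.4 in Myc tumors and 26.8, 31.0, 36.8 and 19.3 in Extracranial tumors, against 44.1, 68.6 and 55.1 CPM in brain. SHH and Extracranial libraries all lay below the brains, and among Myc tumors only library 1 reached into their range. The fitted log2 differences from brain, each with its standard error, were -1.35 ± 0.44 (adjusted p = 0.0925) in SHH tumors, -0.89 ± 0.40 (adjusted p = 0.077) in Myc tumors and -0.97 ± 0.40 (adjusted p = 0.0543) in Extracranial tumors (edgeR). All 3 missed the threshold in this fit. DESeq2 and limma voom each called Kdr lower in all 3 groups, the compared groups alone called it in SHH and Extracranial tumors, and RLE scaling and no filter on low counts called it in Extracranial tumors. Over 7 such alternatives with every library kept, the adjusted p of Kdr ranged, for SHH tumors, over 0.000979 to 0.124, for Myc tumors over 0.0179 to 0.196 and for Extracranial tumors over 0.0205 to 0.0708 (edgeR, DESeq2 or limma). With 1 library left out, Kdr was called lower in SHH tumors without Myc tumor 2 (adjusted p = 0.0239), in Myc tumors without Myc tumor 1 (adjusted p = 0.0253) and in Extracranial tumors without Myc tumor 1 or 2, or Extracranial tumor 3 (adjusted p = 0.00793 to 0.0461). Grafts had 86.0, 49.7 and 70.2 CPM of Kdr, which overlapped the brains and lay above every SHH tumor. It was higher in grafts than in SHH tumors by 1.64 ± 0.44 on the log2 scale (edgeR adjusted p = 0.00788).

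Flt1 followed the groups less closely. It was at 60.0, 13.9 and 23.5 CPM in SHH tumors, 71.3, 15.4, 29.7 and 59.5 in Myc tumors, 29.7, 40.2, 23.3 and 17.5 in Extracranial tumors and 55.4, 83.1 and 50.4 in grafts, against 35.4, 42.9 and 32.7 CPM in brain. The grafts all lay above the brains, while SHH and Myc tumors each had libraries on both sides. No comparison called Flt1. The difference of grafts was 1.19 ± 0.51 (adjusted p = 0.163) over Extracranial tumors and 0.95 ± 0.56 (adjusted p = 0.174) over SHH tumors (edgeR), and the one over SHH tumors passed without SHH tumor 1 (adjusted p = 0.0267).

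The genes of the ligands had their own pattern over the groups. Vegfa, the main VEGF, is made mostly by tissue cells around the vessel. It was at 83.2, 57.5 and 53.3 CPM in SHH tumors, 222, 613, 91.7 and 230.1 in Myc tumors, 84.4, 145, 88.9 and 101 in Extracranial tumors and 142, 445 and 119 in grafts, against 71.4, 136 and 95.9 CPM in brain. Myc tumor 2 had the most Vegfa of any library, 613 CPM, and at the same time the least Kdr, 9.80 CPM. Vegfa was higher in Myc tumors than in brain (1.51 ± 0.57, adjusted p = 0.0379) and than in SHH tumors (2.16 ± 0.59, adjusted p = 0.00992), and higher in grafts than in SHH tumors (1.86 ± 0.60, adjusted p = 0.0211; edgeR). Vegfd, a ligand of the lymphatic receptor Flt4 (in mouse its binding to Kdr is weak), had 29.1, 8.13, 23.7 and 29.2 CPM in Myc tumors, 76.0, 21.7, 7.73 and 35.4 in Extracranial tumors and 9.76, 5.84 and 6.20 in grafts, against 1.54, 0.912 and 0.787 CPM in brain, with no overlap. Its log2 difference from brain was 4.38 ± 0.72 (adjusted p = 0.000238) in Myc tumors, 5.02 ± 0.74 (adjusted p = 0.000103) in Extracranial tumors and 2.75 ± 0.68 (adjusted p = 0.0038) in grafts (edgeR). SHH tumors had 1.11, 0.776 and 1.19 CPM, within the range of the brains but for library 2. Vegfc, which also binds Flt4, was called higher in Extracranial tumors than in brain, by 2.11 ± 0.78 (edgeR adjusted p = 0.0353), and Pgf, the placental growth factor that binds Flt1, was called in no comparison with brain.

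Flt4 itself, or VEGFR3, is found on lymphatic endothelium and on sprouting blood vessels. It was at 28.0, 13.5, 24.6 and 18.2 CPM in Myc tumors and 22.9, 21.8 and 19.5 in grafts, above all 3 brains at 6.66, 6.55 and 6.39 CPM. Its log2 difference from brain was 1.69 ± 0.43 (adjusted p = 0.0052) in Myc tumors and 1.71 ± 0.45 (adjusted p = 0.00559) in grafts by edgeR. Of 8 lymphatic markers, Flt4 among them, 2 were higher and 2 lower than in brain in grafts and in Myc tumors, and 1 higher and 2 lower in Extracranial tumors, below the shares of all genes for the higher ones in Extracranial tumors and near them otherwise. Their sum was 668 to 1848 CPM in grafts, against 219 to 415 CPM in brain. Most of it in grafts was Stab1, a scavenger receptor that macrophages also carry, at 1510.0, 633 and 718 CPM, against 27.5, 36.7 and 33.3 CPM in brain (4.88 ± 0.81, adjusted p = 0.000223, edgeR). The lower ones were Prox1 and Reln, which neurons also transcribe. Prox1, the factor that defines lymphatic endothelium and that neural cells also use, was at most 0.506 CPM in the grafts and 1.76 CPM in Myc tumors, against 48.2 to 71.7 CPM in brain.

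Tek, or Tie2, is the receptor of the angiopoietins, and Tie1 is its partner, which binds no angiopoietin firmly by itself. Tek was the 1 member that was highest in brain. Its levels were 16.3, 4.14 and 8.04 CPM in SHH tumors, 17.3, 2.97, 7.57 and 16.6 in Myc tumors, 9.66, 5.53, 3.67 and 3.33 in Extracranial tumors and 10.8, 1.95 and 12.8 in grafts, against 20.9, 15.7 and 16.0 CPM in brain. All Extracranial and graft libraries lay below every brain, and graft 2, at 1.95 CPM, was the lowest of the 17. No comparison called Tek in this fit. The difference in Extracranial tumors was -1.66 ± 0.68 (adjusted p = 0.0539) (edgeR), and it passed without SHH tumor 1, Myc tumor 2, Extracranial tumor 1 or graft 2 (adjusted p = 0.0292 to 0.049). Tek was also called lower there with RLE scaling, by DESeq2, with the compared groups alone and with the library number as a block (adjusted p 0.0188 to 0.0815 over the 7 alternatives). Limma voom called it lower in SHH tumors and in grafts, at the low end of an adjusted p of 0.046 to 0.554 and 0.0086 to 0.252 over the alternatives.

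Tie1 had another order of groups. It was at 16.3, 10.7 and 14.3 CPM in SHH tumors, 31.9, 11.5, 22.2 and 33.0 in Myc tumors, 30.0, 27.2, 10.8 and 14.9 in Extracranial tumors and 50.7, 40.2 and 57.4 in grafts, against 32.2, 21.4 and 20.4 CPM in brain. The grafts were above and the SHH tumors below all brains. Tie1 was higher in grafts than in SHH tumors by 1.84 ± 0.43 (edgeR adjusted p = 0.00335), and this call was kept without each library in turn. Against brain, the graft difference was 1.001 ± 0.42 (adjusted p = 0.056) (edgeR) and passed without Myc tumor 2, Extracranial tumor 3 or Healthy brain 1 (adjusted p = 0.0303 to 0.0484). The difference of Myc from SHH tumors was 0.84 ± 0.40 (adjusted p = 0.103) and passed without Myc tumor 2 (adjusted p = 0.0336).

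The angiopoietins moved in opposite directions in the grafts. Angpt1, the ligand that activates Tek and stabilises vessels, fell to 0.309, 0.405 and 0.721 CPM in grafts, against 11.7, 15.2 and 12.3 CPM in brain (-4.75 ± 1.74, adjusted p = 0.0311, edgeR). Angpt2, which is released by activated endothelium and can block Tek, was at 18.2, 112 and 20.8 CPM in grafts, against 6.46, 6.07 and 5.23 CPM in brain (3.09 ± 1.01, adjusted p = 0.0186, edgeR). Graft 2, with the least Tek, had the most Angpt2, 112 CPM. SHH tumors had 24.9, 10.6 and 4.74 CPM of Angpt1, on both sides of the brains. In Myc tumors Angpt1 lay below all brains, at 2.13, 0.939, 2.08 and 1.94 CPM, without passing the test. Extracranial tumors had 0.732, 1.34, 103 and 0.170 CPM, and library 3 among them had more than any other library.

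**Figure D3:**
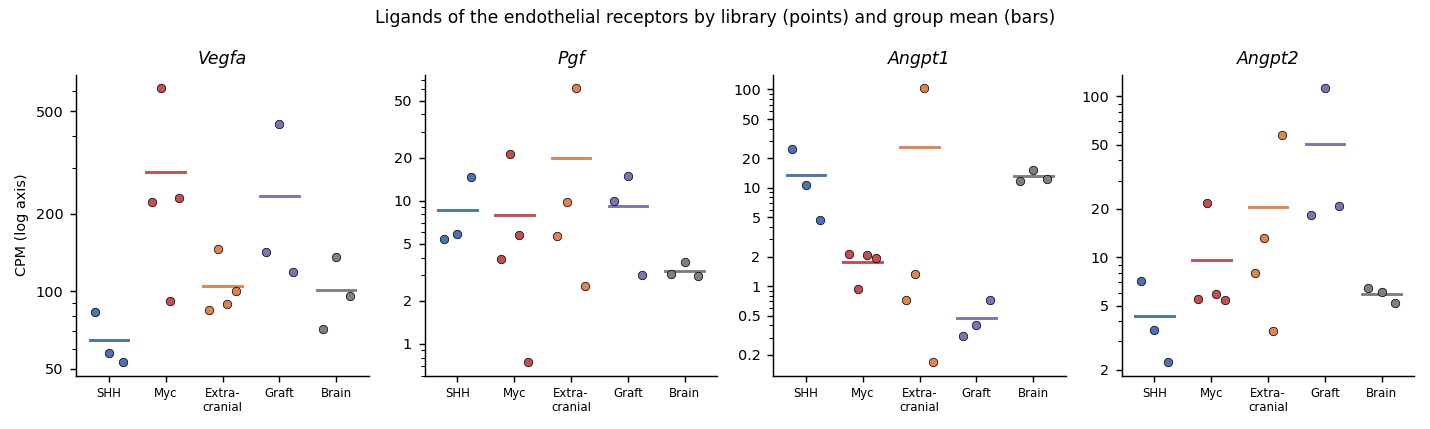
Levels of the ligand genes Vegfa, Pgf, Angpt1 and Angpt2 in every library, in CPM on log axes, by group, with a bar at each group mean. Angpt1 lies below the brains in every Myc tumor and graft, and Vegfa is highest in Myc tumor 2, at 613 CPM.

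Pecam1, Cdh5 and Esam sit at the contacts between endothelial cells. Cdh5 encodes VE-cadherin, the adhesion protein of endothelial junctions. It was at 16.5, 13.0 and 17.4 CPM in SHH tumors, 65.8, 22.3, 29.1 and 37.3 in Myc tumors, 82.0, 89.3, 22.6 and 25.1 in Extracranial tumors and 142, 116 and 154 in grafts, against 47.8, 39.6 and 33.0 CPM in brain. Grafts were above every other library, and SHH tumors below every other library. Cdh5 was higher in grafts than in brain (1.77 ± 0.51, adjusted p = 0.00883), than in SHH tumors (3.13 ± 0.53, adjusted p = 0.000441) and than in Myc tumors (1.83 ± 0.46, adjusted p = 0.0358; edgeR). The last of these was lost without Myc tumor 2, 3 or 4, graft 1, 2 or 3, or Healthy brain 2 or 3 (adjusted p = 0.0507 to 0.112). It was also lost with the library number as a block (edgeR adjusted p = 0.0673) and without Healthy brain 1 and SHH tumor 1 together (edgeR adjusted p = 0.055). Over SHH tumors Cdh5 was also higher in Extracranial tumors (1.81 ± 0.49, adjusted p = 0.00995) and in Myc tumors (1.30 ± 0.48, adjusted p = 0.0414; edgeR), and the call for Myc tumors was lost without SHH tumor 1, 2 or 3, Myc tumor 1 or 4, graft 1, 2 or 3, or Healthy brain 2 or 3 (adjusted p = 0.0508 to 0.131). The Myc call was also lost with RLE scaling, no filter on low counts and that pair of libraries left out (edgeR adjusted p = 0.0501 to 0.105). Among libraries whose file numbers begin with 29, the Myc difference was 0.97 and was not called. The Extracranial call was lost with the compared groups alone (edgeR adjusted p = 0.0642). An antisense gene, Gm29682, overlaps Cdh5 without sharing exon bases, and the strand setting of the counting is not given in the sources used here.

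Pecam1, or CD31, is an adhesion protein of endothelial junctions that leukocytes and platelets also carry. Its levels were 23.1, 12.0 and 18.5 CPM in SHH tumors, 55.1, 19.2, 46.4 and 36.1 in Myc tumors, 67.7, 184, 21.4 and 22.3 in Extracranial tumors and 116, 123 and 137 in grafts, against 49.2, 24.2 and 22.7 CPM in brain. Extracranial tumor 2, at 184 CPM, was the highest of all libraries, and Extracranial tumors 3 and 4 lay below every brain. In Extracranial tumors against brain the difference was 1.21 ± 0.64 (adjusted p = 0.127), and it passed without Extracranial tumor 3 (adjusted p = 0.048) (edgeR). Pecam1 was higher in grafts than in brain (1.97 ± 0.69, adjusted p = 0.0248, edgeR), a call that was lost without graft 3, or Healthy brain 2 or 3 (adjusted p = 0.0535 to 0.0863). It was higher than in SHH tumors in grafts (2.81 ± 0.71, adjusted p = 0.00536) and in Extracranial tumors (2.05 ± 0.66, adjusted p = 0.0255; edgeR). The Extracranial call was lost without SHH tumor 1, 2 or 3, or Extracranial tumor 2 (adjusted p = 0.0504 to 0.12), and without Extracranial tumor 2 the log2 difference was 0.99. The same call was lost with the compared groups alone (edgeR adjusted p = 0.12) and without Healthy brain 1 and SHH tumor 1 together (edgeR adjusted p = 0.0531).

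Esam, an adhesion molecule of endothelium and platelets, was at 16.9, 11.1 and 11.05 CPM in SHH tumors, 24.1, 6.47, 19.99 and 29.1 in Myc tumors, 47.7, 19.7, 10.6 and 9.75 in Extracranial tumors and 38.7, 41.1 and 46.3 in grafts, against 24.5, 20.5 and 20.8 CPM in brain. Extracranial tumor 1, at 47.7 CPM, was the highest single library. It was higher in grafts than in SHH tumors by 1.69 ± 0.57 (edgeR adjusted p = 0.0262), a call lost without SHH tumor 2 or 3, or graft 1, 2 or 3 (adjusted p = 0.0502 to 0.0809).

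Markers of blood cells that also carry some of these proteins moved with the groups. For 10 macrophage markers summed, the SHH tumors held 313 to 345 CPM, the Myc tumors 994 to 2835, the Extracranial tumors 1711 to 4473 and the grafts 4787 to 5385 CPM, against 65.1 to 106 CPM in brain. All 10 were called higher than in brain in Myc tumors, Extracranial tumors and grafts, and 5 of 10 in SHH tumors. Ptprc, the common leukocyte antigen CD45, was at 469.6, 418 and 358 CPM in grafts, against 3.59, 2.24 and 2.08 CPM in brain (7.30 ± 0.57, adjusted p = 1.39e-06, edgeR). Extracranial tumor 2, with the most Pecam1, had 83.8 CPM of Ptprc, the least of the Extracranial tumors. Its macrophage sum, 1812 CPM, was above the 1711 CPM of Extracranial tumor 3. The part of leukocytes in its Pecam1 was not tested.

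Platelet and megakaryocyte markers were lower in level. Their sum over 8 genes ranged over 3.79 to 10.1 CPM for SHH tumors, 13.8 to 58.1 for Myc tumors, 23.9 to 122 for Extracranial tumors and 51.8 to 94.1 CPM for grafts, against 5.51 to 10.6 CPM in brain. Pf4, platelet factor 4, which macrophages can also transcribe, was at 83.1, 56.2 and 42.7 CPM in grafts, against 5.89, 2.89 and 2.04 CPM in brain (4.07 ± 1.10, adjusted p = 0.00651, edgeR). The platelet glycoprotein genes Gp9, Gp1ba and Gp6 were too low to test, at group means of at most 0.190 CPM for Gp9, in grafts. The part of blood cells in the levels of the 10 genes, Pecam1 and Esam among them, was not tested.

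**Figure D4:**
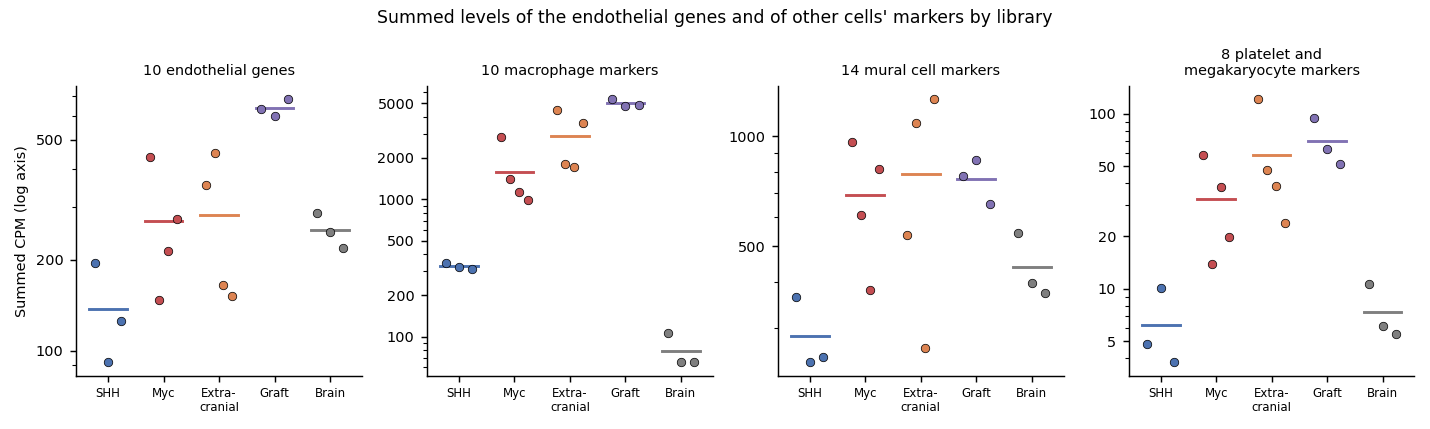
Summed CPM of the 10 endothelial genes and of the macrophage, platelet and mural cell marker lists in every library, by group, on log axes, with a bar at each group mean. The endothelial sum is 602 to 684 CPM in grafts, above all other libraries, and the macrophage sum is highest there too.

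Emcn and Plvap mark kinds of vessel rather than all of them. Emcn encodes endomucin, a sialomucin of capillaries and veins. It was the member called in the most comparisons, 7 of 10. It was at 7.91, 5.36 and 4.64 CPM in SHH tumors, 39.9, 18.3, 13.4 and 19.0 in Myc tumors, 18.4, 17.6, 9.81 and 9.65 in Extracranial tumors and 43.04, 39.9 and 34.4 in grafts, against 10.01, 5.97 and 4.55 CPM in brain. All Myc and graft libraries lay above the brains, and SHH tumors shared the brains' range. Emcn was higher than in brain in Myc tumors (1.73 ± 0.42, adjusted p = 0.00362), in Extracranial tumors (1.02 ± 0.41, adjusted p = 0.0483) and in grafts (2.51 ± 0.45, adjusted p = 0.000371; edgeR). The calls in Myc tumors and grafts were kept without each library in turn. The one in Extracranial tumors was lost with RLE scaling, no filter on low counts and the compared groups alone (adjusted p 0.00346 to 0.0928 over the 7 alternatives). With 1 library left out it was lost without SHH tumor 2 or 3, Myc tumor 4, Extracranial tumor 1 or 2, graft 1, 2 or 3, or Healthy brain 2 or 3 (adjusted p = 0.0515 to 0.178).

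Against SHH tumors, Emcn was higher in Myc tumors (1.92 ± 0.42, adjusted p = 0.00288), in Extracranial tumors (1.22 ± 0.41, adjusted p = 0.0307) and in grafts (2.71 ± 0.45, adjusted p = 0.000379; edgeR), with no overlap in any of these. The Extracranial call was lost without SHH tumor 2 or 3, or Extracranial tumor 1 or 2 (adjusted p = 0.0709 to 0.102). It was also lost with no filter on low counts and with the compared groups alone (edgeR adjusted p = 0.0543 and 0.0763). Among libraries whose file numbers begin with 29, the Myc difference was 1.37 and was not called. Grafts also exceeded Extracranial tumors (1.497 ± 0.40, adjusted p = 0.046, edgeR), a call lost without SHH tumor 2 or 3, Extracranial tumor 2, 3 or 4, graft 1, 2 or 3, or Healthy brain 2 or 3 (adjusted p = 0.052 to 0.145). No filter, the compared groups alone, and leaving out Healthy brain 1 and SHH tumor 1 together lost it too (edgeR adjusted p = 0.0507 to 0.0796).

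Plvap encodes the protein of the diaphragms that close fenestrae and caveolae, and mature barrier vessels of the brain have little of it. Its libraries lay far apart in Myc tumors and close together in Extracranial tumors. Its levels were 6.90, 2.07 and 1.39 CPM in SHH tumors, 75.8, 37.5, 12.3 and 1.81 in Myc tumors, 30.2, 30.3, 23.7 and 25.1 in Extracranial tumors and 72.9, 93.2 and 106 in grafts, against 12.4, 3.24 and 5.50 CPM in brain. Every Extracranial tumor and graft was above every brain. Myc tumors spanned 75.8 CPM in library 1 and 1.81 CPM in library 4, below all 3 brains. Healthy brain 1, which held the Gh of the pituitary, an organ of fenestrated vessels, had the most Plvap of the brains, 12.4 CPM. Myc tumor 1, with the most Plvap of the Myc tumors, also had Gh, at 71.4 CPM. The part of pituitary tissue in these values was not tested.

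Plvap was higher in grafts than in brain by 3.68 ± 0.99 on the log2 scale (edgeR adjusted p = 0.00626) and kept this call without each library, at 4.37 without Healthy brain 1. The differences from brain were 2.17 ± 0.90 (adjusted p = 0.0551) in Myc tumors and 1.95 ± 0.89 (adjusted p = 0.0781) in Extracranial tumors by edgeR. DESeq2 and the library number as a block called Plvap higher in both, and limma voom and the compared groups alone called it in Extracranial tumors (adjusted p 0.0214 to 0.129 in Myc and 0.00879 to 0.119 in Extracranial tumors over the 7 alternatives). With 1 library left out, they passed in Myc tumors without SHH tumor 1, Myc tumor 3 or 4, or Healthy brain 1 (adjusted p = 0.00816 to 0.0465) and in Extracranial tumors without Myc tumor 4 (adjusted p = 0.0218). Against SHH tumors, Plvap was higher in Myc tumors (3.21 ± 0.95, adjusted p = 0.0153), in Extracranial tumors (2.99 ± 0.94, adjusted p = 0.0218) and in grafts (4.72 ± 1.04, adjusted p = 0.00238; edgeR). The Myc call was lost without SHH tumor 2 or 3 (adjusted p = 0.0585 to 0.0622) and the Extracranial call without SHH tumor 2 or 3 (adjusted p = 0.0778 to 0.0827). The Myc call was also lost by limma voom (adjusted p = 0.0765) and with the compared groups alone (edgeR adjusted p = 0.0786). Among libraries whose file numbers begin with 29, the Myc difference was only 0.78 and was not called. Without SHH tumor 1 the log2 difference was 4.20 in Myc tumors, 3.98 in Extracranial tumors and 5.71 in grafts, and without Myc tumor 1 that of Myc tumors was 2.29. The gene lies across Gtpbp3 on the opposite strand, with no exon bases shared.

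Erg is an ETS-family transcription factor that keeps endothelial genes active, among them Cdh5. It was at 5.49, 2.54 and 2.55 CPM in SHH tumors, 10.004, 3.60, 5.25 and 6.76 in Myc tumors, 11.6, 9.36, 2.74 and 4.42 in Extracranial tumors and 16.6, 13.9 and 16.5 in grafts, against 10.8, 5.58 and 7.64 CPM in brain. Grafts stood above and SHH tumors below all brains. It was called higher in grafts than in SHH tumors (2.15 ± 0.56, adjusted p = 0.00629, edgeR) and kept that call without each library. Fli1, the related factor that blood cells share with endothelium, was at 60.4, 37.2 and 43.2 CPM in grafts, against 5.42, 5.86 and 6.70 CPM in brain. It was higher than in brain in Myc tumors (1.59 ± 0.50, adjusted p = 0.0166), in Extracranial tumors (1.65 ± 0.50, adjusted p = 0.0135) and in grafts (2.97 ± 0.55, adjusted p = 0.000503; edgeR), alongside the macrophage markers, and the part of macrophages in it was not tested. Of 17 endothelial transcription factors tested of 18 listed, 8 were higher and 1 lower in grafts than in brain, against 24.9% and 30.4% of all genes. Tal1, a factor of blood and endothelium that some neurons also use, was the lower one (-3.13 ± 0.79, adjusted p = 0.00413, edgeR).

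The sequence motif that ETS factors such as Erg and Fli1 recognise, AGGAAG or CGGAAG on either strand, was sought in the 250 bases before each RefSeq start, which need not be the gene start given above. RefSeq promoter sequences (build GRCm38.p6) were matched for 6 of the 10 members: Kdr, Flt1, Tek, Tie1, Emcn and Erg. These genes have 8 promoters, because Erg has 3. At least 1 match was found in 4 of the 8 promoters, beside 39.2% of all 32851 promoters of the same length. The 4 belong to Flt1, Tie1, Emcn and Erg. The match of Erg is in a promoter inside the gene, and its other promoters, among them the one at the gene start given above, have none. Most of the Tie1 window also lies inside the gene as given above. AGGAAG is in 29.5% of all promoters and CGGAAG in 13.6%, and some hold both. The promoters of Emcn, the member called most often, and of Tek, the one that was highest in brain, are shown as examples. They were picked by their levels here, so the pair says nothing on matches and levels. Flt1 has 2 matches and was called in no comparison, and Kdr has none and was called in grafts over SHH tumors. Emcn lies on the plus strand (chr3:137340828-137341077) and has 2 matches of AGGAAG or its reverse complement CTTCCT, in capitals, which begin 174 and 93 bases before the start. Tek also lies on the plus strand (chr4:94739039-94739288) and has none in this window. A match is a description of letters and shows no binding.
Emcn: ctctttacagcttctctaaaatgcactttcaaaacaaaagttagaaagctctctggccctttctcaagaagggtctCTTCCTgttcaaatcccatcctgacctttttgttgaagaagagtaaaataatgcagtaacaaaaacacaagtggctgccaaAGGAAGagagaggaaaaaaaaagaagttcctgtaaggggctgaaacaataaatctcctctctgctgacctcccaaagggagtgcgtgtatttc
Tek: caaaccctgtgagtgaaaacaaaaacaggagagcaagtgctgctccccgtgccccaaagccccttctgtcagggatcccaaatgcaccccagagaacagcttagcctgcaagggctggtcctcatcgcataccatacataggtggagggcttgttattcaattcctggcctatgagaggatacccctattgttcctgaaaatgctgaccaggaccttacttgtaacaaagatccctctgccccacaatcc

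Ratios of 2 members within a library do not depend on its scaling. They were taken as log2 of counts plus 0.5, and 14 tumors were compared with 3 brains by a two-sided exact permutation test of the means (680 arrangements, smallest possible p = 0.00294), adjusted over the 4 ratios. Tek over Tie1 was 0.00, -1.37 and -0.83 in SHH tumors, -0.88, -1.95, -1.55 and -0.99 in Myc tumors, -1.63, -2.30, -1.55 and -2.16 in Extracranial tumors and -2.23, -4.36 and -2.17 in grafts, against -0.62, -0.45 and -0.35 in brain. Of the 14 tumors 13 lay below every brain, and SHH tumor 1, the library with 4017 CPM of Mbp, lay above. The mean difference was -1.24 (exact p = 0.0265, adjusted p = 0.0647). Without SHH tumor 1 it was -1.37 (exact permutation test, adjusted p = 0.0143). SHH tumor 1 was the only tumor not below the brains. Leaving it out fixed this p at the smallest the test can give, so no conclusion is drawn from it.

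Kdr over Flt1 was -1.23, 0.25 and 0.01 in SHH tumors, -0.53, -0.65, -0.11 and -0.79 in Myc tumors, -0.15, -0.37, 0.66 and 0.15 in Extracranial tumors and 0.63, -0.74 and 0.48 in grafts, against 0.32, 0.68 and 0.75 in brain. It was below every brain in 11 of 14 tumors, among them all Myc tumors. The mean difference was -0.75 (exact p = 0.0324, adjusted p = 0.0647). Leaving out Healthy brain 1 and SHH tumor 1 together brought both Kdr over Flt1 (-0.80) and Tek over Tie1 (-1.44) past the threshold, each at an adjusted p of 0.0381 in the exact permutation test. With these libraries out, every tumor lay below the brains in both ratios. The p was thus at its smallest possible value by the choice of libraries, and no conclusion is drawn from it.

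Emcn over Pecam1 was -1.55, -1.17 and -1.99 in SHH tumors, -0.47, -0.07, -1.79 and -0.93 in Myc tumors, -1.88, -3.39, -1.13 and -1.20 in Extracranial tumors and -1.43, -1.63 and -1.99 in grafts, against -2.30, -2.02 and -2.32 in brain. It was above every brain in 13 of 14 tumors and below them in Extracranial tumor 2. The mean difference was 0.74 (exact p = 0.141, adjusted p = 0.188), and 0.89 without that library (exact permutation test, adjusted p = 0.0143). That library was the only one not above the brains. Leaving it out fixed this p at the smallest the test can give, so no conclusion is drawn from it. Plvap over Pecam1 was -1.74, -2.53 and -3.73 in SHH tumors, 0.46, 0.97, -1.92 and -4.31 in Myc tumors, -1.16, -2.60, 0.14 and 0.17 in Extracranial tumors and -0.67, -0.41 and -0.37 in grafts, against -1.99, -2.90 and -2.04 in brain. The grafts were alike and all above the brains, and the other tumor groups were wide. The mean difference was 1.04 (exact p = 0.291, adjusted p = 0.291).

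**Figure D5:**
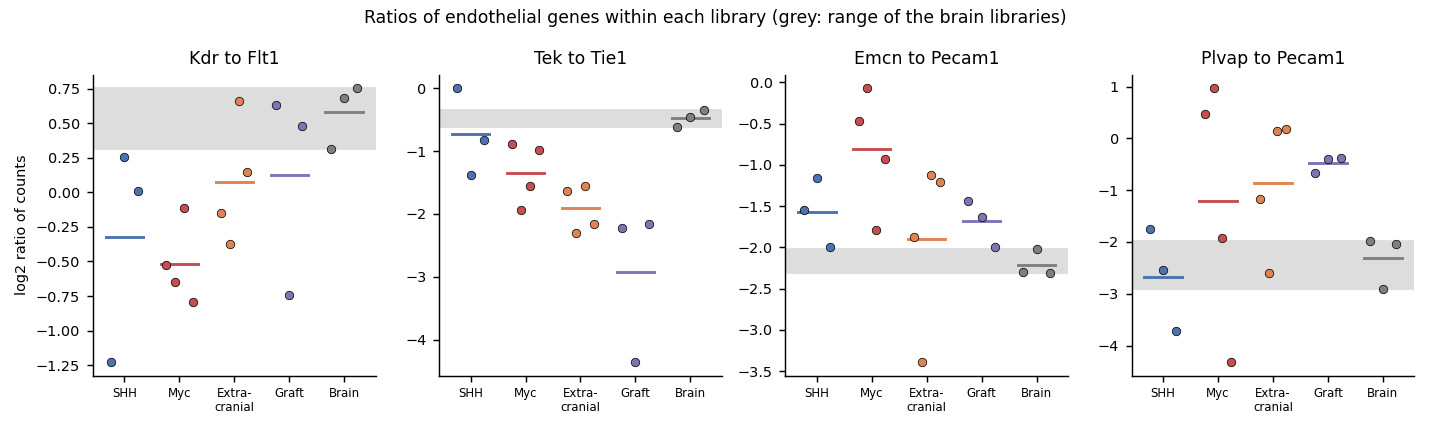
Log2 ratio of 4 pairs of endothelial genes within each library, by group, with a bar at each group mean and a grey band over the range of the brains. Tek over Tie1 is below every brain in 13 of 14 tumors, and Emcn over Pecam1 is above every brain in 13 of 14.

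Compared per kilobase of exon, the order of the members differed between groups. In grafts, Plvap was highest at 45.6 CPM per kb, followed by Cdh5 at 32.6 and Pecam1 at 20.1, with Tek lowest at 1.80 CPM per kb. In brain, Cdh5 was highest at 9.55 CPM per kb, followed by Esam at 7.65 and Kdr at 6.19, and Emcn was lowest at 1.26. In SHH tumors, Esam (4.55 CPM per kb) and Cdh5 (3.72) were highest. Plvap was the highest member in Myc tumors (16.0 CPM per kb) and in Extracranial tumors (13.8) too. These orders were not tested.

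Within groups, most members varied together from library to library. The correlation of a member's log2 deviations from its group means with the mean of the other 9 was 0.91 for Erg, 0.89 for Tie1 and 0.89 for Cdh5 over the 17 libraries, and 0.54 for Kdr and 0.13 for Plvap. Over the 45 pairs of members it ran from -0.14 to 0.89, with a median of 0.63. Libraries share their depth and their content of other tissue in such values, which are a description. Among 14518 other genes, those whose deviations were most like the mean of the members included Mmrn2 (0.95), Icam2 (0.94), Afap1l1 (0.94), Pdlim4 (0.92), Egfl7 (0.92), Ccm2l (0.91) and Nos3 (0.90). Ptprc, the leukocyte gene, was at 0.48, the platelet gene Pf4 at 0.56, the claudin of the brain barrier Cldn5 at -0.07 and Vegfa at -0.22.

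Other endothelial genes were read from lists by counts. Beside these counts stand the shares of all genes called against brain, which were 25.3% higher and 26.8% lower in Myc tumors, 26.1% in each direction in Extracranial tumors, 24.9% higher and 30.4% lower in grafts, and 4.37% in both directions together in SHH tumors. Of 23 other endothelial markers, 7 were higher and 0 lower in grafts than in brain, and 12 were higher and 0 lower in grafts than in SHH tumors (20.4% of all genes higher). The share of the 23 higher than in brain in grafts is near that of all genes. Cd93, a receptor of angiogenic endothelium that myeloid cells also carry, was higher in grafts than in brain by 3.39 ± 0.65 (edgeR adjusted p = 0.000627), and so was Gpihbp1, which anchors lipoprotein lipase in capillaries outside the brain (5.57 ± 1.16, adjusted p = 0.00119). In Extracranial tumors 3 were higher and 4 lower than in brain, both below the shares of all genes, among the lower ones Rasip1, which shapes the vessel lumen (-1.55 ± 0.36, adjusted p = 0.00247, edgeR). In SHH tumors Rasip1 was the 1 marker that fell (-1.85 ± 0.39, adjusted p = 0.0198, edgeR). The median log2 difference of the 23 was -0.59 in SHH tumors, 0.64 in Myc tumors, 0.10 in Extracranial tumors and 1.01 in grafts, each against brain.

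Barrier genes of brain vessels were counted in the same way. Of 15 blood-brain barrier genes, 9 were lower and 1 higher in Extracranial tumors than in brain, 5 lower and 2 higher in grafts, 3 lower and 2 higher in Myc tumors, and 0 lower and 1 higher in SHH tumors. The lower share in grafts is near that of all genes and the one in Myc tumors under it. Cldn5, the claudin of barrier junctions, fell to 13.0, 9.85, 2.57 and 6.90 CPM in Extracranial tumors, against 45.9, 41.0 and 42.0 CPM in brain (-2.41 ± 0.68, adjusted p = 0.0089, edgeR). It was at 27.4, 256, 26.5 and 65.6 CPM in Myc tumors, where library 2 had the most of all. Mfsd2a, the lipid transporter of barrier endothelium, was lower in Extracranial tumors (-4.73 ± 0.78, adjusted p = 0.000223, edgeR). Slc16a1, a lactate transporter of barrier endothelium and many dividing cells, was the 1 higher gene in SHH and in Extracranial tumors (1.72 ± 0.33, adjusted p = 0.015 in SHH tumors, edgeR). Several of these genes are also transcribed by neural or epithelial cells. Beside them, the sum of 10 neuron markers ranged over 825 to 4411 CPM for SHH tumors, 94.96 to 571 for Myc tumors, 61.2 to 449 for Extracranial tumors and 155 to 216 CPM for grafts, against 6385 to 7866 CPM in brain, and its part was not tested.

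Of 9 genes of fenestrated and capillary vessels, which include Plvap, Emcn and Kdr, 5 were higher in grafts than in brain, 2 in Extracranial tumors, 1 in Myc tumors and 0 in SHH tumors, with none lower, against 24.9%, 26.1%, 25.3% and, in both directions, 4.37% of all genes. Car4, a carbonic anhydrase on capillary endothelium, was among those in grafts (5.56 ± 1.42, adjusted p = 0.00464, edgeR), but it was at 337, 309 and 6.54 CPM there, against 6.92, 2.46 and 4.46 CPM in brain, so that 1 graft lay within the brains' range. Of 12 genes of sprouting or tip cells, 7 were higher in grafts, 7 in Extracranial tumors and 4 in Myc tumors than in brain, against 24.9%, 26.1% and 25.3% of all genes. Esm1, a proteoglycan gene of tip cells, was higher in grafts by 5.98 ± 0.99 (edgeR adjusted p = 0.000216), and so were the Notch ligand Dll4 (1.69 ± 0.44, adjusted p = 0.00547) and Apln (2.86 ± 0.85, adjusted p = 0.0111), the ligand of the apelin receptor. In SHH tumors 1 of the 12 was lower than in brain, Nid2, a protein of the basement membrane (-1.42 ± 0.37, adjusted p = 0.0444, edgeR).

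Arterial genes included 0 that were higher in grafts or Extracranial tumors than in brain and 2 of 10 that were lower in each, below the 30.4% and 26.1% of all genes. In Myc tumors 1 was higher and 3 were lower. The lower ones in grafts and Extracranial tumors were Efnb2, the arterial ephrin, and Stmn2, and both are also neural genes. Of 8 venous genes, 1 was higher in Myc tumors, 2 in Extracranial tumors and 1 in grafts than in brain, and 1 was lower, in grafts, at or below the shares of all genes. Vcam1, an adhesion molecule for leukocytes, was higher in Myc tumors (2.55 ± 0.63, adjusted p = 0.00397), Extracranial tumors (2.53 ± 0.63, adjusted p = 0.004) and grafts (3.67 ± 0.68, adjusted p = 0.000507; edgeR). The second gene in Extracranial tumors was Ephb4, the venous ephrin receptor (1.87 ± 0.57, adjusted p = 0.0133, edgeR). The lower one was Ackr1, a chemokine receptor of venules, at 0.478, 0.0369 and 0.324 CPM in grafts, against 51.8, 35.2 and 41.6 CPM in brain (-7.27 ± 2.24, adjusted p = 0.0135, edgeR). Mural cells, the pericytes and smooth muscle that wrap the endothelium, were read from 14 markers, of which 3 were higher and 1 lower in grafts than in brain, below the 24.9% and 30.4% of all genes, 2 higher and 3 lower in Myc tumors, and 1 higher and 1 lower in Extracranial tumors. The pericyte channel gene Kcnj8 was higher there (1.89 ± 0.63, adjusted p = 0.0208, edgeR). Rgs5, a pericyte regulator of G proteins, was at 251, 231 and 197 CPM in grafts, against 86.7, 127 and 123 CPM in brain, without overlap but without passing the test (1.01 ± 0.62, adjusted p = 0.177). Pdgfrb, the PDGF receptor that pericytes need and that other mesenchymal cells also have, was at 362, 57.0, 41.5 and 215 CPM in Myc tumors and 58.1, 230.5, 58.8 and 523 CPM in Extracranial tumors, against 81.9, 41.7 and 38.2 CPM in brain.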

How the data were processed

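Polyadenylated RNA of 17 libraries was measured. Per the labels' protocols, a miRNeasy kit gave total RNA, DNase treatment followed, and libraries were of the TruSeq Stranded mRNA type. Reads were aligned with STAR 2.5.3a to mm10, per the submitters' processing notes. The authors deposited a file of raw gene counts for each library. How reads were counted (the tool, its use of strand, reads shared by genes) is not given in the sources used here. Of 50600 gene IDs, 50376 matched the reference annotation without their version (45737 with it).

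Counts were tested with edgeR 4.0.16 in R 4.3.3 (TMM scaling, filterByExpr with a minimum count of 10, robust quasi-likelihood fit of all 17 libraries with 1 mean per group). The filter kept 21494 genes. P-values were adjusted by Benjamini-Hochberg over these, and a gene was called at an adjusted p under 0.05. Levels are CPM after TMM scaling, and the log2 values of the correlations used a prior count of 2. Alternatives were DESeq2 1.42.0, limma 3.58.1 voom with quality weights, other size factors, other filters, the compared groups alone, the library number as a block, libraries left out, and libraries whose file numbers begin alike. The tests were tried on simulated data first. Ratios of counts with 0.5 added were compared with exact permutation tests (scipy 1.17.1). Python 3.11.15, numpy 2.4.6, pandas 2.3.3 and matplotlib 3.10.9 were also used. Correlations, called likeness, took each gene's deviations from its group means.

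The members and gene lists were chosen with earlier results of these data known. All 10 members are named in every group, and from other lists a few fixed genes and up to 4 called genes with the smallest adjusted p in a comparison. Groups and library numbers came from the labels. Nothing says that libraries came from separate animals, so p-values measure the spread between these samples. Replicate libraries differed by far more than sampling noise (chi-square per gene 71.3 to 969.4). Deviations of libraries with the same number did not go together (31 pairs, correlation -0.18 to 0.14, 2 over 0.1). This cannot exclude that such libraries share an animal or a batch, because a small shared effect would be hidden by the spread between tumors. The numbers were not used to pair samples in the main fit. A few genes of these lists are not reported here.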

Additional observations from a re-analysis of the deposited data

Results flagged for a closer look

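The 17 called differences between tumor groups (edgeR quasi-likelihood test, adjusted p under 0.05) were flagged, as differences of the effect of tumor over brain. Brain cancels in such a difference. They are thus the same calls as those given above with the shares of all genes, and no further evidence. Of all 23 calls, 10 were lost without some library. All are log2 differences between tumor groups. Pecam1 was higher than in SHH tumors by 2.05 in Extracranial tumors and 2.81 in grafts. Cdh5 was higher than in SHH tumors by 1.30 in Myc tumors, 1.81 in Extracranial tumors and 3.13 in grafts, and higher in grafts than in Myc tumors by 1.83. Emcn was higher than in SHH tumors by 1.92 in Myc tumors, 1.22 in Extracranial tumors and 2.71 in grafts, and higher in grafts than in Extracranial tumors by 1.497. Plvap was higher than in SHH tumors by 3.21 in Myc tumors, 2.99 in Extracranial tumors and 4.72 in grafts. In grafts over SHH tumors, Kdr was higher by 1.64, Tie1 by 1.84, Esam by 1.69 and Erg by 2.15. No library stood far from the others of its group in 28 groups of 4 values, which were tested by the gap to the nearest library over the range of the group, at a critical value that chance passes in about 1 group of 20.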

How the results depend on the processing

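Of the 23 called differences of the 10 genes, DESeq2 and a minimum count of 50 kept all 23, limma voom 22, the library number as a replicate block 22, RLE scaling 21, no filter on low counts 19, Healthy brain 1 and SHH tumor 1 left out together (chosen with earlier results known) 19, and the compared groups alone 17. With 1 library left out at a time, 13 were always kept. The cause of each change below was not tested. Against brain, the number of genes called in SHH tumors was 0, but, all lower, 1 by DESeq2 (Kdr), 6 by voom (Kdr, Cdh5, Tek, Tie1, Esam and Erg), 2 with the compared groups alone (Kdr and Cdh5) and 0 to 1 with 1 library left out. In Myc tumors it was 1 (Emcn, higher), which was joined by Kdr lower in DESeq2 (3 with Plvap higher) and voom (2), and by Plvap higher with the block (2) and without Healthy brain 1 and SHH tumor 1 (2), and it was 1 to 2 with 1 library left out. In Extracranial tumors it was 1 (Emcn, higher), but with RLE 2, both lower (Kdr and Tek), with no filter 1, lower (Kdr), by DESeq2 4 (Emcn and Plvap higher, Kdr and Tek lower), by voom 4 (Pecam1, Emcn and Plvap higher, Kdr lower), with the compared groups alone 3 (Plvap higher, Kdr and Tek lower), with the block 3 (Emcn and Plvap higher, Tek lower), without that pair of libraries 2 (Emcn and Plvap higher), and 0 to 3 with 1 library left out. In grafts it was 4, all higher, but 9 by voom (8 higher, Tek lower), 8 with the compared groups alone, all higher, and 3 to 5 with 1 library left out. The share of all genes called in either direction changed with the setting too. In SHH tumors against brain it was 4.37% in the main fit, 13.4% by DESeq2, 35.2% by voom and 5.82% with the compared groups alone. In the same order it was 52.2%, 57.4%, 66.1% and 50.2% in Myc tumors. It was 52.2%, 57.4%, 61.8% and 47.6% in Extracranial tumors and 55.3%, 60.8%, 78.1% and 69.8% in grafts. In Myc tumors it was 48.3% with the block and 46.3% without the pair. In Extracranial tumors it was 52% with RLE, 29.7% with no filter, 48.5% with the block and 45.8% without the pair. The calls between tumor groups were all higher in every setting. Over SHH tumors, Myc tumors had 3, but 6 by voom, 0 among libraries whose file numbers begin with 29, and 1 to 4 with 1 library left out. Extracranial tumors had 4, but 1 with the compared groups alone and 1 to 4 with 1 library left out, and grafts had 8 (7 to 9). Grafts over Myc tumors had 1, but 2 by DESeq2, 8 by voom, 2 with the compared groups alone, 0 with the block, 0 without the pair and 0 to 2 with 1 library left out. Grafts over Extracranial tumors had 1, but 0 with no filter, 4 by DESeq2, 5 by voom, 0 without the pair and 0 to 3 with 1 library left out. Of all genes, Myc over SHH tumors had 40.9% called in the main fit, 47.2% by voom and 20.7% among those file numbers. Extracranial over SHH tumors had 38.3%, and 25% with the compared groups alone. Grafts over Myc tumors had 6% in the main fit, 17.5% by DESeq2, 19% by voom and 8.18% with the compared groups alone. In the same order, grafts over Extracranial tumors had 4.78%, 17.4%, 13.5% and 0.641%. Grafts over Myc tumors had 2.69% with the block and 4.38% without the pair. Grafts over Extracranial tumors had 1.39% with no filter and 2.73% without the pair. For fits with 1 library left out the shares of all genes are not given here, so their counts of members stand without them. The test of any difference called 7 (5 to 8). Differences near 0 changed sign. In SHH tumors against brain, Flt1 was -0.19 (-0.98 to 0.17 with 1 library left out) and Emcn -0.20 (0.10 by voom, -0.45 to 0.18). In Myc tumors against brain, Cdh5 was -0.06 (0.084 by voom, 0.033 with the compared groups alone, 0.062 with the block, 0.082 without the pair, -0.42 to 0.12), Flt1 0.25 (-0.061 to 0.52), Tie1 0.00 (-0.059 with RLE, -0.072 with no filter, -0.058 by DESeq2, -0.047 with the block, -0.18 to 0.24) and Esam -0.14 (0.031 by voom, -0.39 to 0.15). In Extracranial tumors against brain, Esam was near 0 (0.015 at a minimum count of 50, 0.0022 with the compared groups alone, 0.077 without the pair, -0.71 to 0.23) and Erg -0.19 (0.076 without the pair, -0.53 to 0.083). Of the ratios, Plvap over Pecam1 was 1.04 (0.75 to 1.28) and -0.36 with SHH tumors alone. Without the pair, Kdr over Flt1 was -0.80 and Tek over Tie1 -1.44, both past the threshold, but leaving out these libraries itself put every tumor below the brains. With 1 library left out they were -0.89 to -0.67 and, for Tek over Tie1, -1.37 to -1.03, and Emcn over Pecam1 was 0.63 to 0.89. Values of single genes outside the 10 are not given under these alternatives. Counts of members were at least 57, so depth limits them little.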
